A study of Mus musculus with 8 samples.

Results

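Peritoneal mast cells (MC) of tumor-bearing mice were compared between treatment with DC101, a rat antibody that blocks the mouse VEGF receptor 2, and placebo. The comparison used the 4 arrays whose tissue label is peritoneum, of 8 arrays in the series, and it covered all 24111 transcript clusters of the array. A transcript cluster is the set of probes that reads 1 gene or transcript. All mice were C57BL/6J and carried Panc02 cells, a mouse pancreatic cancer line, under the skin of the flank, so that the placebo group also consisted of tumor-bearing mice and no group without a tumor was used. Mice were assigned at random at a tumor volume of 100 mm3 to 40 mg/kg DC101 or to placebo. There were 2 peritoneal placebo arrays and 2 peritoneal DC101 arrays. The other 4 arrays hold MC sorted from the tumors under the same treatments and enter here where the spread of the values is estimated and where the peritoneal response is set against that of tumor MC. The age of the mice, the duration of treatment and the number of mice behind an array are stated neither in the labels nor in the methods. Replicate arrays are therefore not known to come from separate mice, and every p-value reflects no more than how far these arrays spread, and that spread may be technical.

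MC of the peritoneal cavity are tissue-resident cells of the connective tissue type. They store histamine, serotonin, heparin and large amounts of proteases in their granules, and they depend on the receptor tyrosine kinase KIT (CD117) for survival. Crosslinking of the high-affinity IgE receptor (FcεRI) releases the granules and starts the synthesis of leukotrienes and prostaglandins. The same cavity holds a large population of resident macrophages, B cells of the B1 type and, in lower numbers, eosinophils, T cells and NK cells, which are washed out together with the MC. For the study the cells were recovered by lavage and sorted with DAPI and antibodies to CD45, CD11b, CD117 and FcεRI. The gates set on these stains are stated neither in the labels nor in the methods.

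The identity of the sorted cells was checked first. MC transcripts were present at high levels in all 4 peritoneal arrays. Cpa3, carboxypeptidase A3 of the MC granule, measured 11.72 and 11.67 in the placebo arrays and 11.48 and 11.45 in the DC101 arrays on the log2 scale, on which the median cluster lay at 3.48. Kit measured 9.80 and 9.52 with placebo and 8.96 and 9.03 with DC101, and Fcer1a, the IgE-binding chain of the receptor, measured 9.80, 9.68, 9.49 and 9.75 in the same order. The mean over 22 MC markers was 7.97 and 8.02 in the placebo arrays and 7.56 and 7.85 in the DC101 arrays. The peritoneal arrays also carried transcripts that MC are not known to make. The mean over 14 markers of peritoneal macrophages was 8.54 and 8.35 in the placebo arrays and 8.48 and 8.62 in the DC101 arrays, against 4.87 to 5.14 in MC from tumors, and Gata6, the transcription factor that defines these macrophages, measured 6.10, 5.76, 5.87 and 5.04. The mean over 12 B cell markers was 7.74 and 7.57 with placebo and 6.77 and 6.26 with DC101, against 2.94 to 3.48 in tumor MC. Of the markers of red blood cells only 2 were measured, at a mean of 2.84 to 3.28 in the peritoneal arrays. In such bulk RNA, fewer cells of a type and less RNA per cell cannot be told apart. The macrophage mean was above the MC mean in each of the 4 peritoneal arrays. Peritoneal MC therefore stands below for the sorted cells as labelled, and no rise or fall is assigned to MC themselves. The part of the marker lists that moved with treatment in the differences of other gene groups was not tested.

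**Figure D1:**
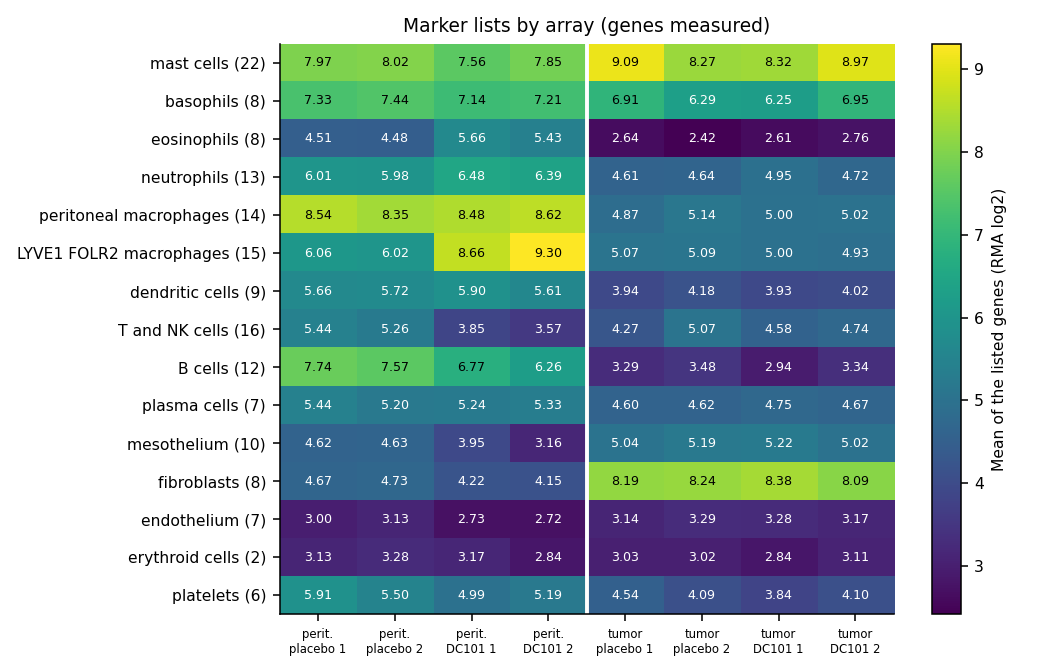
Mean log2 level of the measured genes of 15 marker lists (rows, number of genes in brackets) in each of the 8 arrays (columns, peritoneal arrays left of the white line, tumor arrays right of it). The MC list stayed between 7.56 and 8.02 in the peritoneal arrays, whereas the LYVE1 and FOLR2 macrophage list was at 6.06 and 6.02 with placebo and at 8.66 and 9.30 with DC101.

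The transcriptome of the peritoneal sort differed widely between treatments. At a Benjamini-Hochberg adjusted p under 0.05 (limma), 1105 of 24111 clusters were called (4.58%), of which 599 rose (2.48%) and 506 fell (2.10%). Among the called clusters, 939 differed by at least 1 on the log2 scale, 188 differed by at least 2, and of these 110 were higher and 78 lower with DC101. At the study's own thresholds, an unadjusted p under 0.05 with a difference of 1 or more on the log2 scale, 1418 clusters were called (5.88%), 741 upwards (3.07%) and 677 downwards (2.81%). Both DC101 arrays lay on one side of both placebo arrays in 11101 of all clusters (46.0%) and in all 1105 called clusters. The median log2 difference over all clusters was -0.02, the median standard error was 0.24, and the smallest called difference was 0.77. Correlation between arrays was 0.9777 within the placebo pair, 0.9744 within the DC101 pair and 0.9531 to 0.9599 between pairs. The number of arrays limits the precision of every value. When 1 of the 8 arrays was left out, 311 to 906 clusters were called, and 123 of the rises and 93 of the falls were called whichever array was left out. A call of this kind is described below as kept. Without the sharing of spread between clusters, 33 clusters passed.

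**Figure D2:**
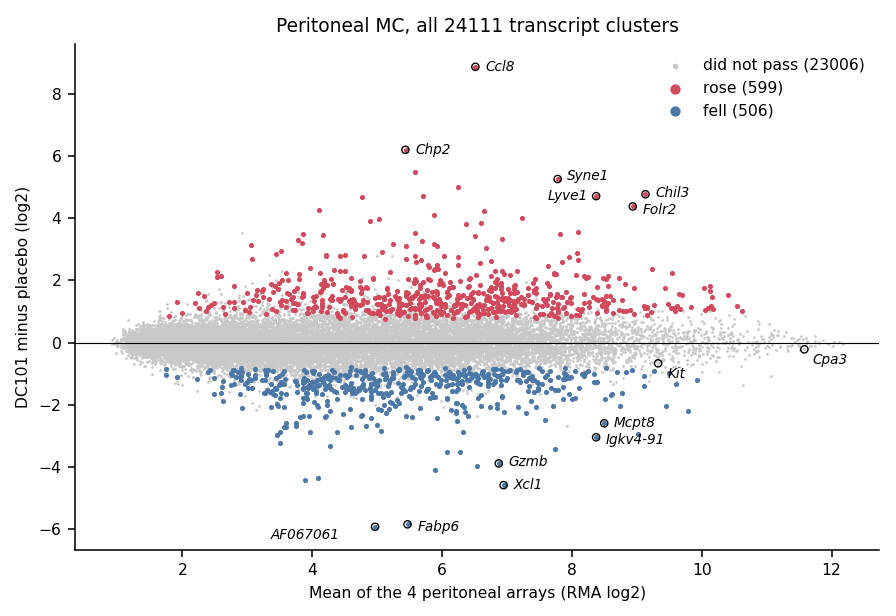
Difference between DC101 and placebo in peritoneal MC (vertical axis, log2) against the mean of the 4 peritoneal arrays (horizontal axis, RMA log2) for each transcript cluster. Red points rose (599), blue points fell (506) and grey points did not pass, and circled genes are named in the text. Ccl8 lies highest at 8.87, AF067061 and Fabp6 lie lowest at -5.93 and -5.85, and the MC genes Kit and Cpa3 lie at -0.67 and -0.22.

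The largest rise of all was that of Ccl8, a monocyte-attracting CC chemokine. It measured 2.11 and 2.04 in the placebo arrays, below the median cluster, and 10.72 and 11.18 in the DC101 arrays, a log2 difference of 8.87 ± 0.29 (SE, n = 2 arrays a group, adjusted p = 5.6e-06 by limma). Chp2, a calcineurin B homologous protein that binds sodium/proton exchangers, went from 2.30 and 2.37 to 8.28 and 8.79 (6.20 ± 0.23, adjusted p = 7.5e-06). In both genes the placebo arrays were within 0.1 of each other and far under both DC101 arrays. Chil3, a chitinase-like lectin also known as Ym1, was already expressed with placebo at 6.72 and 6.78 and measured 11.58 and 11.45 with DC101 (4.77 ± 0.33, adjusted p = 3.8e-04). Tslp, an epithelial-type cytokine that acts on MC and dendritic cells, measured 2.30 and 2.55 with placebo and 6.52 and 7.71 with DC101 (4.69 ± 0.37, adjusted p = 6.3e-04). The DC101 arrays differed from each other by more than the placebo arrays in this gene, yet both were far above them.

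Further large rises belonged to genes of varied function. Syne1, which encodes the nuclear envelope protein nesprin-1, measured 4.6 and 5.70 with placebo and 10.78 and 10.04 with DC101. Fxyd2, the gamma subunit of the sodium pump, measured 3.25 and 4.23 with placebo and 7.76 and 9.71 with DC101. Pdgfc, a platelet-derived growth factor, measured 2.96 and 3.14 against 6.21 and 7.80. The largest rises were named only among genes whose groups did not overlap, so the lack of overlap here adds nothing. The DC101 arrays of Fxyd2 lay almost 2 apart. Dach1, a transcription factor of the dachshund family, measured 3.08 and 2.78 with placebo and 7.44 and 6.25 with DC101, and Gapt, an adaptor that binds GRB2 in haematopoietic cells, measured 5.95 and 6.19 with placebo and 10.07 and 9.05 with DC101. The rises of all genes named in this and the preceding paragraph were kept. Atp6v0d2, a subunit of the vacuolar proton pump, was less even: it measured 2.04 and 1.92 with placebo but 4.93 and 7.54 in the DC101 arrays (4.25 ± 0.88, adjusted p = 0.03). Its call was lost without either placebo array, without DC101 replicate 2 or without either tumor DC101 array, with log2 differences between 2.95 and 5.55.

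**Figure D3:**
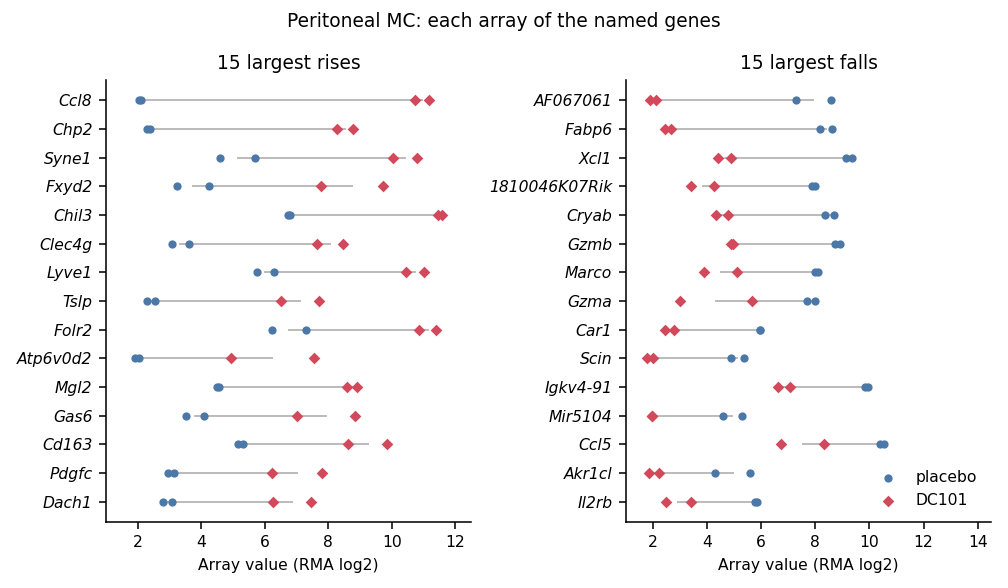
Log2 value (RMA) of each peritoneal array for the 15 genes with the largest rise (left) and the 15 with the largest fall (right), with a grey line between the group means. Circles are placebo arrays and diamonds DC101 arrays, 2 of each. The 30 genes were chosen among called clusters whose groups do not overlap. The DC101 arrays lie farthest apart for Atp6v0d2 (4.93 and 7.54) and Gzma (5.65 and 3.01).

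Genes of LYVE1+ FOLR2+ resident macrophages made up the list, of 47 examined, with the most rises for its size. These macrophages line vessels and serous membranes, and they carry receptors that take up hyaluronan, folate, mannosylated proteins and haemoglobin. Of 15 measured genes of the list, 11 rose and none fell, where 2.48% of all clusters rose. The median log2 difference was 2.87 against -0.02 over all clusters. Because the lists and their members were chosen with earlier results of these data known, the rank of this list is a description and not independent evidence. Lyve1, the hyaluronan receptor, measured 6.29 and 5.75 with placebo and 10.44 and 11.01 with DC101 (4.71 ± 0.29, adjusted p = 2.5e-04). Folr2, folate receptor beta, measured 6.22 and 7.28 with placebo and 10.86 and 11.39 with DC101 (4.38 ± 0.35, adjusted p = 6.5e-04). Cd163, the receptor for haemoglobin bound to haptoglobin, measured 5.16 and 5.30 against 8.62 and 9.85. In all 3 receptors DC101 replicate 2 was the highest array, and the lower DC101 array was still more than 3 above the higher placebo array. Gas6, the ligand of the TAM receptor kinases, measured 4.10 and 3.52 with placebo and 7.02 and 8.83 with DC101. Clec4g, a C-type lectin, measured 3.61 and 3.07 against 8.47 and 7.64. Cbr2, a carbonyl reductase, and F13a1, the coagulation factor XIII A chain, rose by 3.55 ± 0.27 and 2.87 ± 0.28. The mannose receptor Mrc1 rose by 2.76 ± 0.31. The transcription factor Maf and the ficolin Fcna rose by 2.06 ± 0.26 and 1.52 ± 0.23. The rises of 10 of the 11 genes were kept, and that of Fcna was lost without placebo replicate 2 (1.33 to 1.71 over all fits).

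Not every gene of such macrophages went the same way. Timd4, a phosphatidylserine receptor of long-lived resident macrophages, measured 8.83 and 8.90 with placebo and 8.16 and 8.53 with DC101 (-0.52 ± 0.25, adjusted p = 0.3). Pf4, platelet factor 4, measured 10.26 and 10.14 against 9.32 and 9.64, and the 2 other members that did not pass were Igf1 (0.71 ± 0.28) and Stab1 (1.04 ± 0.29). The list of 14 peritoneal macrophage markers had 1 fall and no rise, with a median of 0.15, where 4.58% of all clusters were called. The fall was that of Fcgr1, the high-affinity IgG receptor, which measured 6.27 and 6.36 with placebo and 3.08 and 4.26 with DC101 (-2.64 ± 0.34, adjusted p = 0.0055, kept). Adgre1, which encodes a surface receptor of macrophages, measured 9.37 and 9.40 with placebo and 10.29 and 10.11 with DC101 (0.82 ± 0.23, adjusted p = 0.088). Prg4 (lubricin) and Alox15, both abundant in cells of the peritoneal macrophage compartment, differed by -0.38 ± 0.25 and -0.34 ± 0.20 without passing. The mean over the peritoneal macrophage markers overlapped between treatments, whereas that over the LYVE1 and FOLR2 genes did not, and the part of a changed cell mixture in the rises was not tested.

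Scavenger and lectin receptors moved in both directions. Of 27 measured, 7 rose and 3 fell (median 0.58), where 2.48% of all clusters rose and 2.10% fell. Mgl2, the galactose-binding lectin CD301b, which is outside that list, measured 4.55 and 4.49 with placebo and 8.91 and 8.60 with DC101 (4.23 ± 0.28, adjusted p = 2.9e-04). Cd209g and Cd209d, members of the DC-SIGN lectin family, rose by 3.46 ± 0.42 and 2.82 ± 0.47. Against these stood Marco, a class A scavenger receptor for bacteria and particles, which measured 8.09 and 7.98 with placebo and 5.12 and 3.90 with DC101 (-3.53 ± 0.38, adjusted p = 0.0028). Msr1, the related scavenger receptor A, measured 9.08 and 8.82 against 7.10 and 7.2 (-1.80 ± 0.25, adjusted p = 0.0076). The third fall was that of the C-type lectin Clec4e, also called Mincle, a receptor for glycolipids chosen for mention after its values were seen, which measured 8.18 and 8.24 against 7.05 and 6.67 (-1.35 ± 0.29, adjusted p = 0.037). Both class A receptors were thus lower in each DC101 array than in each placebo array, while C-type lectins went in both directions. Cd36 (0.50 ± 0.25) and Clec4d (-1.34 ± 0.39) did not pass. The calls of Mgl2, Cd209g, Marco and Msr1 were kept, that of Cd209d was lost without either placebo array or without DC101 replicate 2 (2.18 to 3.46), and that of Clec4e without any one of the 4 peritoneal arrays (-1.54 to -1.16).

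Receptors for immunoglobulin split in a similar manner. Among 10 Fc gamma receptors and Fc receptor-like genes, 2 rose and 3 fell, where 4.58% of all clusters were called. Fcgrt, the neonatal Fc receptor that protects IgG from degradation, measured 8.11 and 7.99 with placebo and 10.11 and 10.72 with DC101 (2.36 ± 0.24, adjusted p = 0.002). Fcrls, an Fc receptor-like protein of mouse myeloid cells, measured 5.25 and 5.03 against 7.83 and 8.55 (3.05 ± 0.31, adjusted p = 0.0021). Fcrl5, a B cell receptor of the same family, fell by 2.43 ± 0.30 on the log2 scale, and Fcrla, a B cell protein related to it, fell by 1.24 ± 0.23. The inhibitory receptor Fcgr2b (0.78 ± 0.26) and the low-affinity receptor Fcgr3 (0.96 ± 0.23, adjusted p = 0.051) did not pass. The calls of Fcgrt, Fcrls, Fcrl5 and, as above, Fcgr1 were kept, whereas that of Fcrla was lost without any one of the 4 peritoneal arrays (-1.36 to -1.12).

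Genes of eosinophils gave a divided picture. Eosinophils carry the chemokine receptor CCR3 and the lectin SIGLECF on their surface and store peroxidase and major basic protein in their granules. Ccr3 measured 4.49 and 4.43 with placebo and 8.62 and 7.95 with DC101 (3.82 ± 0.29, adjusted p = 5.5e-04). Siglecf measured 3.46 and 4.18 with placebo and 7.65 and 7.02 with DC101 (3.52 ± 0.39, adjusted p = 0.0029). Prg2, major basic protein, measured 2.06 and 2.43 against 3.20 and 3.53 (1.11 ± 0.26, adjusted p = 0.048). The 3 rises were those of 8 measured genes, where 2.48% of all clusters rose. Epx, eosinophil peroxidase, stayed at 2.08 to 2.59 in all 4 arrays, under the median cluster, and Prg3, a homologue of Prg2, at 2.03 to 2.41. Il5ra, the receptor chain for interleukin 5, measured 5.96 and 5.80 with placebo and 6.12 and 5.77 with DC101. The surface receptors were thus above the median cluster in the DC101 arrays, whereas both granule genes Epx and Prg3 were below it in every array. The rises of Ccr3 and Siglecf were kept, but that of Prg2 was lost with any 1 of the 8 arrays left out (0.93 to 1.30).

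Markers of neutrophils did not move as a group, with 2 rises and 2 falls among 13, where 4.58% of all clusters were called. Mmp9, gelatinase B, measured 5.61 and 6.09 with placebo and 8.20 and 7.93 with DC101 (2.22 ± 0.25, adjusted p = 0.0032), and Mpo, myeloperoxidase, measured 5.45 and 5.0 against 3.12 and 3.30 (-2.02 ± 0.23, adjusted p = 0.0032). The calprotectin genes S100a8 (0.59 ± 0.31) and S100a9 (0.20 ± 0.30) did not pass. Of the other extracellular proteases and inhibitors, the metalloprotease Adamts9 fell by 1.87 ± 0.27, and the lysosomal cathepsins Ctsb and Ctsl rose by 1.54 ± 0.22 and 1.77 ± 0.28. The list of matrix proteases held 6 rises and 2 falls among 29 genes, beside the same 4.58% of all clusters. The calls of Mmp9, Mpo and Adamts9 were kept. The rise of Ctsb was lost without placebo replicate 2 (1.34 to 1.75), and that of Ctsl without either placebo array or without DC101 replicate 2 (1.5 to 2.03).

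Among the genes that fell, Fabp6, a bile acid-binding protein known from the ileum, measured 8.61 and 8.18 with placebo and 2.65 and 2.43 with DC101 (-5.85 ± 0.23, adjusted p = 8.3e-06). AF067061, an annotated gene without an assigned function here, measured 7.28 and 8.58 against 2.11 and 1.90 (-5.93 ± 0.43, adjusted p = 4.8e-04). With DC101 both genes were below the median cluster. Cryab, the small heat shock protein alpha B-crystallin, measured 8.37 and 8.69 with placebo and 4.34 and 4.76 with DC101 (-3.98 ± 0.22, adjusted p = 1.1e-04). It was the 1 member of 14 heat shock genes that passed, where 4.58% of all clusters were called. The major heat shock genes were abundant and nearly level, with Hspa1b at 11.29 and 11.43 against 11.25 and 11.25 and Hsp90b1 at 10.57 and 10.57 against 10.61 and 10.59. Car1, a carbonic anhydrase, measured 5.94 and 5.95 with placebo and 2.43 and 2.79 with DC101, and Scin, an actin-severing protein, measured 5.35 and 4.88 against 1.99 and 1.77. 1810046K07Rik, annotated only by a clone name, measured 7.89 and 7.99 with placebo and 4.27 and 3.40 with DC101. Akr1cl, an aldo-keto reductase, measured 4.30 and 5.60 against 2.24 and 1.87. The falls of these 7 genes were kept.

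Transcripts of T cells and NK cells were lower with DC101. Of 16 measured markers, 9 fell and none rose, where 2.10% of all clusters fell. All 16 were lower with DC101, and the median was -1.43. Xcl1, a chemokine of activated T and NK cells, measured 9.34 and 9.14 with placebo and 4.89 and 4.42 with DC101 (-4.59 ± 0.28, adjusted p = 2.5e-04). Ncr1, the NK cell receptor NKp46, measured 5.20 and 4.90 against 2.54 and 2.38 (-2.59 ± 0.27, adjusted p = 0.0023). Il2rb, the receptor chain shared by interleukins 2 and 15, measured 5.84 and 5.79 against 3.39 and 2.48 (-2.88 ± 0.35, adjusted p = 0.0041). Eomes, a transcription factor of NK and memory T cells, measured 4.01 and 4.18 against 2.44 and 2.47. With DC101 all these genes except Xcl1 were below the median cluster. The chains Cd3g, Cd3e and Cd3d of the T cell receptor complex fell by 2.84 ± 0.60, 2.31 ± 0.46 and 2.27 ± 0.44, while Cd4 (-0.50 ± 0.38) and Cd8a (-1.30 ± 0.47) did not pass. Ccl5, a chemokine stored by cytotoxic lymphocytes, measured 10.40 and 10.55 with placebo and 8.33 and 6.75 with DC101 (-2.94 ± 0.51, adjusted p = 0.015). Gzma, a granzyme of the same cells, measured 7.70 and 7.98 against 5.65 and 3.01 (-3.51 ± 0.68, adjusted p = 0.024).

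The falls of Xcl1, Ncr1, Il2rb and Eomes were kept. That of Gzma was lost without either placebo array and moved to -2.19 without DC101 replicate 2. Ccl5 lost its call without either placebo array or without DC101 replicate 2 (-3.73 to -2.15). The calls of the CD3 chains were lost without either tumor DC101 array and without at least 2 of the peritoneal arrays (-3.42 to -1.66 over the 3 genes). Il7r, the interleukin 7 receptor of lymphocytes, which tumor MC carried at 6.41 with placebo, measured 6.10 and 5.81 with placebo and 3.40 and 3.10 with DC101 (-2.71 ± 0.30, adjusted p = 0.0029, kept). The survival gene Bcl2 measured 7.84 and 8.58 against 6.23 and 6.05 (-2.07 ± 0.27, adjusted p = 0.0054, kept). The mean level of the T and NK cell list was 5.44 and 5.26 with placebo and 3.85 and 3.57 with DC101, and its part in the falls of genes that MC and lymphocytes share was not tested.

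B cell genes were also lower with DC101. Of 12 measured markers, 5 fell and none rose, where 2.10% of all clusters fell. All 12 were lower and the median was -1.09. Cr2, complement receptor 2, measured 4.63 and 4.58 with placebo and 3.23 and 3.01 with DC101 (-1.48 ± 0.20, adjusted p = 0.0058). Cd22, an inhibitory lectin of B cells, measured 7.83 and 7.77 against 6.33 and 5.74 (-1.76 ± 0.26, adjusted p = 0.0083). Cd5, which marks B1 cells as well as T cells, fell by 1.45 ± 0.22. The genes at the core of the B cell receptor were still abundant with DC101: Cd79b measured 10.49 and 10.50 with placebo and 9.80 and 9.26 with DC101 (-0.96 ± 0.27, adjusted p = 0.079), and Ms4a1, which encodes CD20, measured 8.89 and 8.65 against 8.06 and 7.87 (adjusted p = 0.13). The fall of Cr2 was kept, and those of Cd22 and Cd5 were lost without placebo replicate 2 (-2.06 to -1.47 and -1.66 to -1.25). Of 14 clusters annotated as variable segments of antigen receptors, 5 fell and none rose. The light chain segment Igkv4-91 measured 9.85 and 9.95 with placebo and 6.63 and 7.06 with DC101 (-3.05 ± 0.31, adjusted p = 0.002, kept). The other 4 were chosen for mention after their values were seen and were Trav9d-3 (-2.37 ± 0.31), Igkv4-59 (-2.05 ± 0.27), Igkv4-72 (-1.58 ± 0.25) and Igkv1-133 (-1.31 ± 0.28). The first 2 of these were kept, and the calls of the last 2 were lost without either placebo array or without DC101 replicate 2 (-1.85 to -1.32 and -1.62 to -1.0), that of Igkv1-133 also without either tumor DC101 array. Segments of 1 family are near copies of each other, so a cluster may read more than the segment it is named for.

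Mesothelial and stromal transcripts, which can enter a lavage from the lining of the cavity, had negative differences in all 10 mesothelial and 7 of 8 fibroblast genes. Msln, mesothelin, measured 4.59 and 4.30 against 2.81 and 2.15 (-1.97 ± 0.25, adjusted p = 0.0049), and Upk1b, a uroplakin, fell by 1.66 ± 0.22. Decorin (Dcn), a proteoglycan of fibroblasts, measured 7.28 and 7.35 with placebo and 5.57 and 5.04 with DC101 (-2.0 ± 0.22, adjusted p = 0.0029). All 3 falls were kept. Of the mesothelial list 3 of 10 genes fell, and of the fibroblast list 1 of 8, where 2.10% of all clusters fell. Fn1, fibronectin, was abundant at 11.17 to 11.44 in all 4 arrays and did not pass (-0.22 ± 0.18), nor did Pdgfra (0.51 ± 0.37). The keratins Krt8 and Krt19 were uneven between the DC101 arrays, with 7.18 against 3.77 and 5.08 against 2.44, and did not pass.

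**Figure D4:**
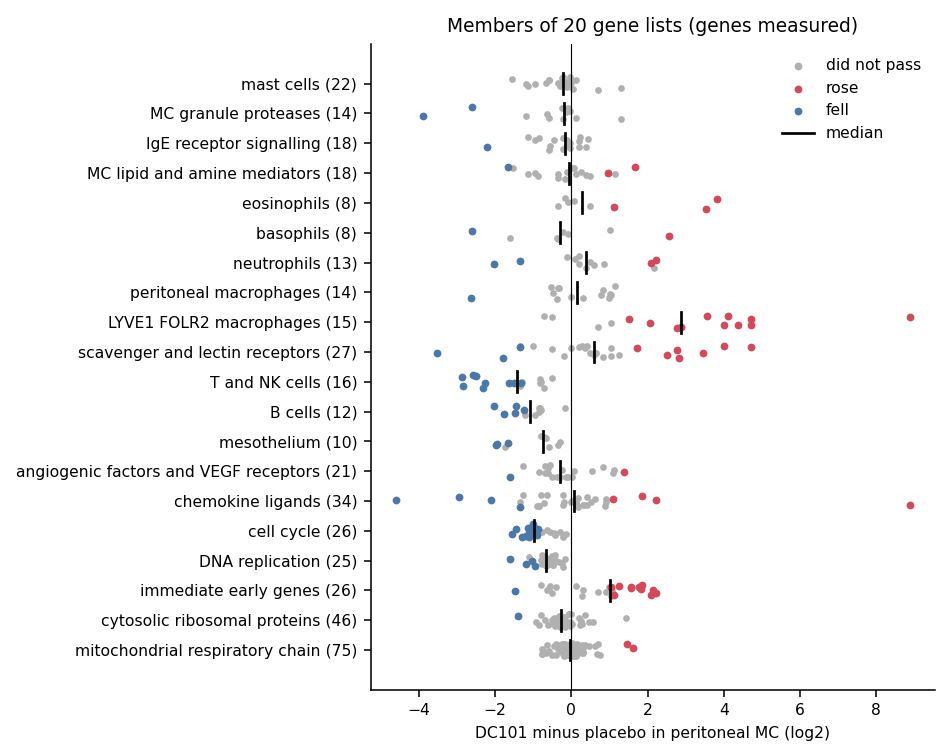
Difference between DC101 and placebo in peritoneal MC (log2) for each measured member of 20 gene lists (rows, number of genes in brackets). Red members rose, blue members fell, grey members did not pass, and black bars mark the median. The median of the LYVE1 and FOLR2 macrophage list is 2.87, that of the T and NK cell list is -1.43, and that of the MC list is -0.23 with no member called.

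Calls in the MC programme itself are set here beside the 4.58% of all clusters that were called. None of the 22 measured MC markers passed (limma), which in so short a list lies near that share. An unadjusted p under 0.05 was found for 4, against 18.9% of all clusters. The median was -0.23, and 18 were lower with DC101. The spread behind these tests came from all 8 arrays. The mean of this list was 9.09 and 8.27 in tumor placebo arrays and 8.32 and 8.97 in tumor DC101 arrays. In peritoneal arrays it was 7.97 and 8.02 with placebo and 7.56 and 7.85 with DC101. The absence of a call therefore does not show that MC genes were unchanged. The major granule proteases were level. Tryptase beta 2 (Tpsb2) measured 11.15 and 10.86 with placebo and 11.00 and 11.23 with DC101, the chymase Mcpt4 measured 10.51 and 10.82 against 10.37 and 10.48, and the chymase Cma1 measured 11.01 and 10.70 against 10.71 and 10.93. In the chymases and tryptase the ranges of the treatments overlapped or lay less than 0.1 apart. The standard errors of the 3 differences were 0.20 to 0.22. Mcpt2, a mucosal-type protease, was uneven within both groups, at 2.30 and 7.0 with placebo and 4.23 and 7.67 with DC101 (1.30 ± 1.39).

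Of 14 MC granule proteases, 2 fell, where 2.10% of all clusters fell, and these were the genes that the study singled out. The study named both among the genes that DC101 deregulated in tumor and peritoneal MC, and it reported more granzyme B with therapy. Its protein data for that increase came from tumor lysates and from MC in tumor sections, and MCPT8 was not changed in the lysates. The values here are RNA of the peritoneal sort, so they differ from those data in compartment and in measure. Gzmb, granzyme B, a serine protease of cytotoxic lymphocytes that MC can also express, measured 8.73 and 8.91 with placebo and 4.88 and 4.97 with DC101, a difference of -3.89 ± 0.26 or 14.8-fold (adjusted p = 2.9e-04). Mcpt8, a protease best known from mouse basophils, measured 9.76 and 9.84 with placebo and 6.89 and 7.50 with DC101 (-2.60 ± 0.28, 6.06-fold, adjusted p = 0.0029). In both genes every DC101 array was more than 2 below every placebo array, and both calls were kept. The basophil genes around them did not move alike: Prss34, another basophil protease, measured 8.77 and 8.73 with placebo and 8.68 and 8.63 with DC101, and Itga2, an integrin chain of mouse basophils and NK cells, rose from 5.28 and 5.33 to 8.37 and 7.33 (2.55 ± 0.40, adjusted p = 0.011). The call of Itga2 was lost without either placebo array or without DC101 replicate 1 (2.02 to 3.07). The part of the T and NK cell transcripts, whose list mean went from 5.44 and 5.26 to 3.85 and 3.57, in the fall of Gzmb was not tested. Of the other granzymes, Gzmm (0.11 ± 0.21), Gzmk (-0.55 ± 0.39) and the pore-forming perforin Prf1 (-0.52 ± 0.29) did not pass.

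Signalling from the IgE receptor was represented by 18 genes, of which 1 fell, where 4.58% of all clusters were called. Lat, the adaptor that couples the receptor to calcium release in MC and T cells, measured 7.78 and 8.37 with placebo and 5.71 and 5.99 with DC101 (-2.22 ± 0.34, adjusted p = 0.0096), a call lost without placebo replicate 2 or DC101 replicate 1 (-2.52 to -1.92). The shared gamma chain Fcer1g measured 10.92 and 10.99 against 11.10 and 11.27, and the beta chain Ms4a2 measured 7.50 and 7.0 against 7.0 and 7.44, with overlap. Among enzymes and transporters of MC mediators, 2 of 18 rose and 1 fell. Tph1, the enzyme of serotonin synthesis in MC, measured 9.59 and 9.31 with placebo and 7.47 and 8.09 with DC101 (-1.67 ± 0.36, adjusted p = 0.035). Slc18a2, which loads amines into granules, measured 9.55 and 9.15 against 8.22 and 8.19 (-1.14 ± 0.42, adjusted p = 0.18), and Hdc, the enzyme of histamine synthesis, measured 9.05 and 8.82 against 8.21 and 7.77 (-0.95 ± 0.39, adjusted p = 0.23). Of these 3 amine genes only Tph1 passed. None of the 3 overlapped between treatments, as was the case for 46.0% of all clusters. Ltc4s, leukotriene C4 synthase, rose by 1.67 ± 0.36 (adjusted p = 0.034). The calls of Tph1 and Ltc4s were lost without any one of the 4 peritoneal arrays (-1.98 to -1.36 and 1.44 to 1.91), that of Ltc4s also without either tumor DC101 array.

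The cytokine receptors of the list divided evenly, with 3 rises and 3 falls among 16, where 2.48% of all clusters rose and 2.10% fell. Besides Il7r, the interleukin 9 receptor Il9r and the interleukin 18 receptor Il18r1 fell by 1.49 ± 0.32 and 1.32 ± 0.21. The interleukin 4 receptor chain Il4ra rose from 6.64 and 6.53 to 7.74 and 7.51 (1.05 ± 0.19, adjusted p = 0.018). Only the call of Il7r was kept. Those of Il9r and Il18r1 were lost without any one of the 4 peritoneal arrays (-1.69 to -1.29) and without placebo replicate 1 or DC101 replicate 2 (-1.54 to -1.10). That of Il4ra was lost without either placebo array or without DC101 replicate 1 (0.93 to 1.16).

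DC101 acts on VEGF receptor 2, and the list of angiogenic factors and their receptors bears on the study's question of how MC may support vessels when this receptor is blocked. Kdr, which encodes the receptor, was under the median cluster in all 4 peritoneal arrays, at 1.96 and 3.03 with placebo and 2.30 and 2.71 with DC101. Of 21 genes, 1 rose and 1 fell, which in so short a list lies near the 4.58% of all clusters that were called. Angpt1, the ligand of the TIE2 receptor, measured 5.61 and 5.22 with placebo and 3.60 and 4.0 with DC101 (-1.61 ± 0.23, adjusted p = 0.0072, kept). Hgf, hepatocyte growth factor, measured 4.78 and 4.82 against 6.33 and 6.04 (1.39 ± 0.23, adjusted p = 0.014), a call lost without either placebo array or without DC101 replicate 1 (1.24 to 1.53). Vegfa measured 5.47 and 5.63 with placebo and 5.82 and 5.09 with DC101, and the groups overlapped (adjusted p = 0.9). Thbs1, the angiogenesis inhibitor thrombospondin 1, measured 9.39 and 9.22 against 8.59 and 7.51 without passing (-1.26 ± 0.35, adjusted p = 0.081). Fgf1, named here because the study followed its release by granzyme B, was at 3.28 to 3.49 in all 4 arrays, around the level of the median cluster. Fgf2 and Csf2, which encode FGF-2 and GM-CSF, were also followed by the study. They had differences of -0.68 and -0.84 and did not pass.

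Of 34 chemokine ligands 4 rose and 4 fell (median 0.06), where 2.48% of all clusters rose and 2.10% fell. The extremes of Ccl8 and Xcl1 thus stood within a list that was balanced as a whole. Ccl24, an eosinophil attractant that binds CCR3, measured 8.59 and 8.27 with placebo and 10.22 and 11.10 with DC101 (2.23 ± 0.39, adjusted p = 0.016). Ccl7, a monocyte attractant of the gene cluster that holds Ccl8, measured 6.58 and 5.81 against 7.78 and 8.30 (1.85 ± 0.29, adjusted p = 0.011). Ccl2, a monocyte attractant of the same cluster chosen for mention after its values were seen, went the other way, at 10.38 and 10.17 against 8.90 and 8.96 (-1.34 ± 0.19, adjusted p = 0.0077, kept). Cxcl9, an interferon gamma-induced chemokine, measured 6.56 and 6.87 against 4.82 and 4.38 (-2.11 ± 0.34, adjusted p = 0.012). The calls of Ccl24, Ccl7 and Cxcl9 depended on single arrays: that of Ccl24 was lost without either placebo array or without DC101 replicate 2 (1.79 to 2.67), and those of Ccl7 and Cxcl9 without placebo replicate 2 or DC101 replicate 2 (1.46 to 2.23 and -2.34 to -1.89). Cxcl13, a B cell attractant that resident peritoneal macrophages make in large amounts, measured 11.29 and 11.33 with placebo and 9.69 and 10.20 with DC101 and did not pass (adjusted p = 0.14). Of 21 chemokine receptors, 3 rose and 1 fell. Besides Ccr3, Cxcr4 rose by 1.47 ± 0.26, a call lost without placebo replicate 2 or either DC101 array (1.14 to 1.81), and Ccr6, a receptor of B cells and some T cells, fell by 1.36 ± 0.20 (kept).

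Of 13 complement genes and receptors, 3 rose and 1, Cr2, fell, where 2.48% of all clusters rose and 2.10% fell. C3ar1 and C5ar1, the receptors for the anaphylatoxins C3a and C5a, rose by 2.05 ± 0.36 and 1.54 ± 0.27 (adjusted p = 0.017 and 0.015), and both calls were lost without placebo replicate 2 or DC101 replicate 2 (1.67 to 2.42 and 1.30 to 1.77). Of 12 Toll-like receptors 1 rose and 2 fell. Tlr3, the sensor of double-stranded RNA, measured 6.53 and 6.73 with placebo and 4.56 and 3.98 with DC101 (-2.36 ± 0.27, adjusted p = 0.0034), and Tlr11 fell by 1.60 ± 0.22, both kept. Of 10 chitinase-like, resistin-like and arginase genes 3 rose. Besides Chil3, arginase 1 (Arg1) measured 7.78 and 7.51 against 9.14 and 9.79 (1.82 ± 0.34, adjusted p = 0.021), a call lost without either placebo array or without DC101 replicate 2 (1.49 to 2.15). Retnla, which is often induced together with Chil3 and Arg1 by interleukin 4, was abundant in all 4 arrays at 10.91 to 11.32 and did not pass (0.25 ± 0.68, adjusted p = 0.89). The MHC class II genes H2-Ab1 (0.23 ± 0.27) and H2-Eb1 (-0.08 ± 0.34) did not pass either, and of the 13 genes of that list only H2-Eb2 fell (-1.37 ± 0.28), a call lost without either placebo array or without DC101 replicate 2 (-1.64 to -1.10).

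Genes of cell division had lower means with DC101. All 26 measured cell cycle genes and all 25 DNA replication genes had negative differences, with medians of -0.97 and -0.67. Of these, 11 and 4 passed, where 2.10% of all clusters fell. Cenpe, a kinesin of the kinetochore, measured 5.37 and 5.58 with placebo and 4.14 and 3.67 with DC101 (-1.57 ± 0.22, adjusted p = 0.0069). Ccnb2, a mitotic cyclin, measured 7.02 and 7.39 against 5.86 and 5.95 (-1.30 ± 0.20, adjusted p = 0.011). Top2a, topoisomerase II alpha, measured 7.11 and 7.30 against 5.78 and 6.41, and Mcm5, a subunit of the replicative helicase, measured 5.59 and 6.14 against 4.19 and 4.31 (-1.62 ± 0.25, adjusted p = 0.011). Both DC101 arrays were below both placebo arrays in 23 of the 26 and 21 of the 25 genes, against the 46.0% of clusters that did not overlap in either direction. The mean of 16 T and NK cell markers went from 5.44 and 5.26 to 3.85 and 3.57 and that of 12 B cell markers from 7.74 and 7.57 to 6.77 and 6.26 in the same arrays, with all 16 and all 12 genes lower, and their part in this difference was not tested. None of the 15 calls was kept. That of Cenpe was lost without placebo replicate 2 (-1.80 to -1.34), those of Ccnb2 and Mcm5 without placebo replicate 2 or DC101 replicate 1 (-1.48 to -1.11 and -1.89 to -1.34), and that of Top2a without any 1 array except DC101 replicate 2 (-1.42 to -0.80).

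The opposite movement was seen in immediate early genes, which are transcribed within minutes after a stimulus. Of 26 measured, 11 rose and 1 fell (median 1.02), where 2.48% of all clusters rose and 2.10% fell. Fosb measured 6.43 and 6.77 with placebo and 8.79 and 8.87 with DC101 (2.23 ± 0.21, adjusted p = 0.0012). Junb measured 7.63 and 7.35 against 9.81 and 9.43 (2.13 ± 0.21, adjusted p = 0.0019), and Fos measured 7.76 and 7.12 against 9.53 and 9.51 (2.08 ± 0.24, adjusted p = 0.0035). Dusp1, a phosphatase that switches off MAP kinases, measured 8.56 and 8.55 against 10.55 and 10.07 (1.76 ± 0.21, adjusted p = 0.0041). In these 4 genes, which were the 4 calls of the list that were kept, the lower DC101 array was above the higher placebo array by more than 1.5. Zfp36 (0.70 ± 0.19), Atf3 (0.27 ± 0.21) and Ier3 (-0.41 ± 0.23) did not pass. The member that fell was Myc, at 8.38 and 8.45 with placebo and 7.21 and 6.69 with DC101 (-1.47 ± 0.24, adjusted p = 0.013), a call lost without either placebo array or without DC101 replicate 2 (-1.73 to -1.20). In MC from tumors treated with placebo, Fosb measured 10.37 and 10.26, above all peritoneal values, and Fos measured 9.38 and 9.48, between the peritoneal placebo and DC101 arrays. The means of the LYVE1 and FOLR2 macrophage list and of the T and NK cell list moved with treatment as well, and their part in the differences of immediate early genes was not tested.

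**Figure D5:**
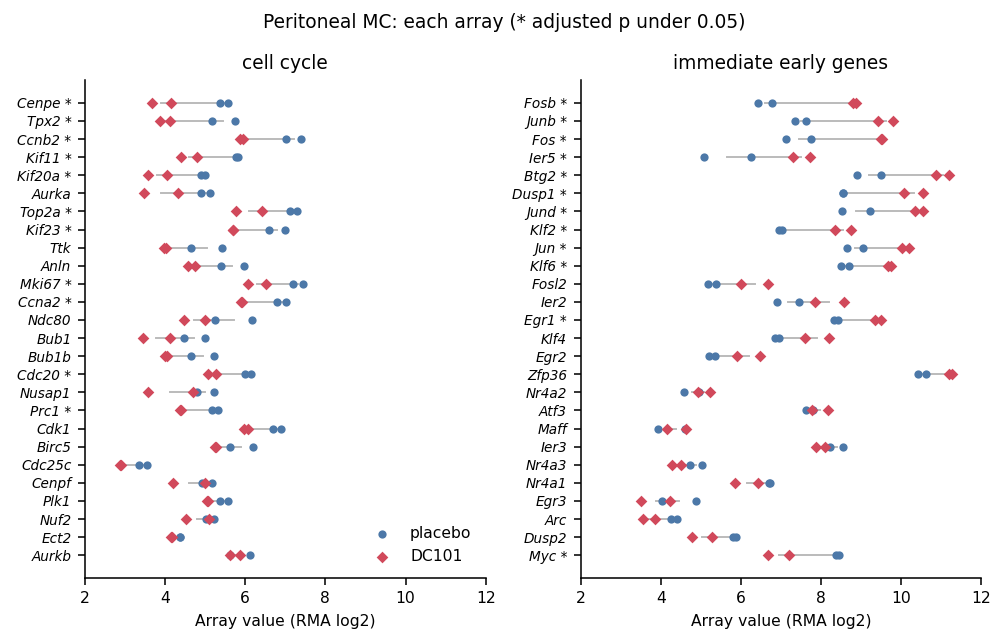
Log2 value (RMA) of each peritoneal array for 26 cell cycle genes (left) and 26 immediate early genes (right), ordered by their difference. Circles are placebo arrays, diamonds DC101 arrays, grey lines join the group means, and a star marks an adjusted p under 0.05. Every cell cycle gene has a lower mean with DC101 (median -0.97), and Fosb, Junb and Fos lead the immediate early genes with rises of 2.23, 2.13 and 2.08.

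Promoters from these 2 lists are shown because 11 members of the first fell and 11 of the second rose, although 15 and 14 members did not pass and Myc of the second fell. In the RefSeq promoters used (GRCm38.p6, 250 bases before to 50 bases after each start, both strands searched), the cyclic AMP response element core TGACG was held by 14 of 21 immediate early promoters (66.7%) and by 6228 of all 27025 promoters (23.0%). The full element TGACGTCA, which contains the core, was found in 3 of the 21 (14.3%, against 2.03% of all), the serum response CArG box in 2 (9.52% against 1.81%) and the AP-1 site TGACTCA in none (5.95% of all). In the cell cycle list, 16 of 21 promoters (76.2%) held the cell cycle homology region TTTGAA, against 20.2% of all, and 16 of 21 (76.2%) a CCAAT box, against 41.1% of all. A match of letters is a description and does not show that a factor was bound. The promoters of Fosb (chr7:19309996-19310295, minus strand), Junb (chr8:84978699-84978998, minus strand) and Fos (chr12:85473640-85473939, plus strand) are printed with the core in capitals, and that of Ccnb2 (chr9:70421505-70421804, minus strand) with the homology region and the CCAAT box in capitals.
Fosb: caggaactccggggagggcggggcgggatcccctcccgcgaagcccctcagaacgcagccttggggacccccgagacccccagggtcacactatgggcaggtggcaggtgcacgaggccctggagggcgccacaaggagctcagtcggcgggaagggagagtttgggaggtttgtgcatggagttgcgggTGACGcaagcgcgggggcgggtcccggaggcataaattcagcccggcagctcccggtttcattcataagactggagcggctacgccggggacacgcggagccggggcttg
Junb: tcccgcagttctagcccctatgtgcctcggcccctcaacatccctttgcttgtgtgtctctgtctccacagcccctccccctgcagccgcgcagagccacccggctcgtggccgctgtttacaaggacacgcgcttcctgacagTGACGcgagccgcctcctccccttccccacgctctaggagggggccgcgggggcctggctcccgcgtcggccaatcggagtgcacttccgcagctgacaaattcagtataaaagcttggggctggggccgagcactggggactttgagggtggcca
Fos: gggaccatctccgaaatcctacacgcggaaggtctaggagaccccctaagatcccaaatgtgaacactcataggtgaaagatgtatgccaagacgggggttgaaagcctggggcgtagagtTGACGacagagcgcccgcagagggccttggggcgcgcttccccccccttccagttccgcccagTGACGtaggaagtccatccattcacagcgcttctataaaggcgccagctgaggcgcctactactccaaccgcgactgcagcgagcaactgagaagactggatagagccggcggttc
Ccnb2: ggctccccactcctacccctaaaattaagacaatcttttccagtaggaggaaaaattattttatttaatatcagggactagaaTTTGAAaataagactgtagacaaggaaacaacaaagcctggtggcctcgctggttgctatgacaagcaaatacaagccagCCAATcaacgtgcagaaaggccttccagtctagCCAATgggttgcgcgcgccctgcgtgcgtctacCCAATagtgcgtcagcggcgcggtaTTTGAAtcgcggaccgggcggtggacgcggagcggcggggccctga
In Fosb and Junb the core began 60 and 106 bases before the start, and Fos held 2 of them, at 129 and 66 bases before it. Ccnb2 held 3 CCAAT boxes, at 87, 54 and 21 bases before the start. The promoter of Cenpe, which fell by 1.57, is not printed. It held 0 homology regions and 1 CCAAT box, 12 bases before the start.

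Among 441 clusters annotated as miRNA genes, 13 rose and 3 fell (3.63% called, against 4.58% of all clusters). These clusters read the RNA of the locus, which includes primary and precursor transcripts, and they do not measure the mature miRNA. The loci Mir23a and Mir27a, which lie in 1 short cluster on chromosome 8 and come from 1 primary transcript, measured 4.99 and 4.43 against 7.31 and 6.75 (2.32 ± 0.27, adjusted p = 0.0035) and 4.79 and 4.74 against 7.19 and 7.06 (2.36 ± 0.19, adjusted p = 6.5e-04). Their means were 4.99 and 5.13 times higher with DC101. Mir146b, a locus induced by inflammatory signals, measured 2.56 and 2.47 against 4.35 and 4.73 (2.02 ± 0.23, adjusted p = 0.0029). Mir20a measured 2.14 and 1.29 against 4.17 and 4.67 (2.70 ± 0.32, adjusted p = 0.0039), whereas Mir17, a locus of the same polycistron, measured 3.69 and 3.71 against 4.72 and 3.43 and did not pass (adjusted p = 0.68). Mir5104 fell from 5.28 and 4.6 to 1.97 and 1.95 (-2.98 ± 0.26, adjusted p = 9.7e-04). It overlaps Zc3h12d, an RNA-binding protein gene of lymphocytes, which fell by 1.48 ± 0.26. The calls of the 5 miRNA loci were kept. That of Zc3h12d was lost without either placebo array or without DC101 replicate 2 (-1.81 to -1.15). The loci other than Mir5104 were chosen for mention after their values were seen.

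The mature sequences of these 5 loci (RefSeq, GRCm38.p6) are shown to tell which seeds their products would carry. Capitals mark the seed, bases 2 to 8, and 1 arm is printed for each locus.
miR-23a-3p (chr8:84208563-84208583, plus strand): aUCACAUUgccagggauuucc
miR-27a-3p (chr8:84208727-84208747, plus strand): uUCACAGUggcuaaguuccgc
miR-146b-5p (chr19:46342790-46342811, plus strand): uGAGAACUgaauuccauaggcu
miR-20a-5p (chr14:115044183-115044205, plus strand): uAAAGUGCuuauagugcagguag
miR-5104 (chr10:7836441-7836464, plus strand): cUGUGCUAgugagguggcucagca
The 5 seeds differ from each other, those of miR-23a-3p and miR-27a-3p included.

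Lists of stress and metabolism differed in their share of calls, where 4.58% of all clusters were called. The lists given below with 1 or 2 calls lay near that share. Of 12 NRF2 targets and genes of cystine transport, 4 rose. Slc7a11, the cystine transporter and a target of NRF2, measured 3.13 and 2.48 with placebo and 5.75 and 5.47 with DC101 (2.80 ± 0.33, adjusted p = 0.0036), and Gsta3, a glutathione transferase, rose by 1.89 ± 0.25, both kept. Gsr, glutathione reductase, and Hmox1, haem oxygenase 1, rose by 1.48 ± 0.30 and 1.10 ± 0.23, but these calls were lost without most of the 8 arrays, kept in 3 and 2 of the 8 fits (0.99 to 1.97 and 0.94 to 1.27). The glutathione-synthesis genes Gclc (-0.65 ± 0.23) and Gclm (-0.24 ± 0.27) of the same list did not pass. Hk2, hexokinase 2, measured 4.75 and 4.88 against 6.29 and 6.41 (1.53 ± 0.22, adjusted p = 0.0084, kept) and was the 1 call among 19 hypoxia and glycolysis genes. Of 18 genes of lipid handling 3 rose and 1 fell. Pltp, the phospholipid transfer protein, rose by 1.47 ± 0.19 (kept), and Abca1, which exports cholesterol, rose by 1.58 ± 0.25, a call lost without placebo replicate 2 (1.26 to 1.90). Lipa, the lysosomal acid lipase, rose by 1.18 ± 0.21, and Scd1, a desaturase of fatty acids, fell by 1.06 ± 0.20. The call of Lipa was lost without either placebo array or without DC101 replicate 2 (0.95 to 1.42), and that of Scd1 without placebo replicate 2 or either DC101 array (-1.18 to -0.94). Of 11 glucocorticoid targets 3 rose. Of 21 type I interferon response genes only Isg20 passed (-1.11 ± 0.24), and of 15 NF-kB targets only Traf1 (-1.25 ± 0.26), both lower with DC101. Of 46 cytosolic ribosomal protein genes 1 fell, Rps24 (-1.39 ± 0.21, kept), and of 75 genes of the mitochondrial respiratory chain 2 rose, Cox7a1 (1.62 ± 0.36) and Sdhd (1.45 ± 0.25), with medians of -0.28 and -0.04. The call of Sdhd was lost without placebo replicate 2 or DC101 replicate 2 (1.18 to 1.72), that of Cox7a1 without placebo replicate 2, either DC101 array or either tumor DC101 array (1.12 to 2.12), and that of Isg20 with any array left out except DC101 replicate 1 (-1.37 to -0.84). That of Traf1 was lost without any one of the 4 peritoneal arrays or either tumor DC101 array (-1.39 to -1.10). Small nucleolar RNAs gave 4 rises and 4 falls among 63 genes. Scarna2, a guide RNA of the Cajal body chosen for mention after its values were seen, measured 7.07 and 6.48 with placebo and 9.39 and 9.48 with DC101 (2.66 ± 0.23, adjusted p = 9.0e-04, kept).

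The peritoneal response was set against that of MC from the tumors of the same treatment groups. In tumor MC no cluster passed the adjusted p, and 1215 (5.04%) had an unadjusted p under 0.05, against 4558 (18.9%) in peritoneal MC. A difference between the responses, tested as an interaction over all 8 arrays, passed for 194 clusters (0.805%), 109 higher and 85 lower in peritoneal MC. This count was 22 to 187 with 1 array left out, lowest without tumor DC101 replicate 1, and 0 without the sharing of spread between clusters, where 2868 had an unadjusted p under 0.05 (limma). Of these 194, 191 were also called in peritoneal MC. Ccl8, which rose in peritoneal MC, was at 7.84 with placebo and 7.63 with DC101 in tumor MC, so the peritoneal placebo arrays were the low ones and the peritoneal DC101 arrays exceeded both tumor groups (interaction 9.09 ± 0.41, adjusted p = 9.7e-05). Gzmb, which fell in peritoneal MC, was at 5.15 and 6.51 in tumor MC (interaction -5.26 ± 0.36, adjusted p = 7.8e-04), and Mcpt8 at 6.71 and 8.41 (interaction -4.31 ± 0.40, adjusted p = 0.0052). The tumor differences of Gzmb and Mcpt8, 1.36 ± 0.26 and 1.71 ± 0.28, did not pass after adjustment over all clusters (adjusted p = 0.61 and 0.58). Both passed the study's thresholds, with unadjusted p = 4.8e-04 and 2.1e-04 (limma), as did 164 of all clusters (0.680%), 92 of them higher with DC101, and in both genes the 2 tumor DC101 arrays were above the 2 tumor placebo arrays. Of the LYVE1 and FOLR2 macrophage list, 10 of 15 genes passed the interaction, and 3 to 11 did with 1 array left out, the fewest without tumor DC101 replicate 1. The interactions of Ccl8, Gzmb and Mcpt8 passed whichever array was left out (8.76 to 9.41, -5.62 to -4.89 and -4.64 to -3.98).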

How the data were processed

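Affymetrix Mouse Gene 2.1 arrays, single-colour and 2 in each of 4 groups, measured RNA of sorted MC, and groups and replicate numbers were taken from the labels. The authors deposited log2 values from RMA, a procedure that corrects background, normalizes by quantiles and summarizes probes. Neither its version nor its options are stated. There are no detection calls, so a low value cannot be told apart from background, and a change shared by all genes is removed. Levels are compared within a cluster.

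Of 24111 clusters, 21508 had 1 gene symbol in the array annotation, 566 several and 2037 none, and 21399 were found in RefSeq GRCm38.p6 by gene identifier. For 187 genes with several clusters the one with the highest mean was used. Differences were computed with limma 3.58.1 (R 4.3.3), with 1 mean per group over all 8 arrays (4 residual degrees of freedom, prior 4.93) and Benjamini-Hochberg adjustment over all clusters. The words rose and fell are kept for an adjusted p under 0.05. Whether the study adjusted its p is not stated, and unadjusted p was used for its thresholds. The functions were tested on simulated data of 24111 clusters. When 200 clusters were shifted by log2 1, 0 were recovered, with 0 false calls. When 200 were shifted by log2 2, 195 were recovered, with 13 false calls. With 0 shifted there were 2 false calls. With so few shifted clusters the adjustment is stricter than in the data, where 1105 clusters were called, down to a difference of 0.77. These simulations therefore do not give the rate of recovery in the comparison itself. Genes that did not pass at differences near log2 1 are not shown to be unchanged. Figures were drawn with matplotlib 3.10.9.

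Named genes are the sort markers and Kdr, the 15 largest rises and falls, the 8 largest among the 10 percent most abundant clusters, up to 6 called and 4 other members of each list, and Gzmb and Mcpt8. The largest rises and falls were taken among called clusters with 1 symbol whose groups did not overlap. The mean of their higher group also had to exceed the median cluster. Eomes, Maf, Fcna, Msr1, Clec4e, Ccl2, Prg3, Gata6, Hdc, Mcpt2, Myc, Fgf1, Fgf2, Csf2, Zc3h12d, Trav9d-3, Scarna2, the microRNA loci other than Mir5104, and Igkv1-133, Igkv4-72 and Igkv4-59 were added after their values were seen. The members and the 47 lists were chosen with earlier results of these data known. Lists were not tested as sets. No array was left out of the main comparison. The alternatives used the peritoneal arrays alone, the replicate number as a block, no moderation, an intensity trend or robust prior, array weights, cyclic loess, and sets without dim clusters, without clusters lacking 1 symbol or without each array in turn. Promoter and miRNA sequences are RefSeq's.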

Additional observations from a re-analysis of the deposited data

Results flagged for a closer look

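The response to DC101 differed between peritoneal and tumor MC for 194 clusters by the interaction test over all 8 arrays (limma, adjusted p under 0.05). The differences are given on the log2 scale as the peritoneal minus the tumor response, for genes named by size or by the study, and their causes were not tested. Among genes that rose in peritoneal MC, the difference was 9.09 for Ccl8, 6.27 for Chp2, 5.07 for Fxyd2, 4.90 for Clec4g, 4.66 for Gas6, 4.53 for Mgl2, 4.42 for Folr2, 4.31 for Pdgfc, 4.29 for Tslp, 4.24 for Cd163, 3.75 for Dach1, 3.70 for Lyve1 and 3.43 for Chil3. In tumor MC treated with placebo and with DC101, the mean was 7.84 and 7.63 for Ccl8, 6.68 and 6.33 for Pdgfc and 2.42 and 2.34 for Chp2, against a median cluster of 3.48.

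Among genes that fell in peritoneal MC, the difference was -6.08 for AF067061, -5.35 for Fabp6, -5.26 for Gzmb, -4.31 for Mcpt8, -4.18 for Cryab, -4.08 for Xcl1, -4.03 for 1810046K07Rik, -3.65 for Scin, -3.57 for Marco, -3.51 for Car1, -3.37 for Igkv4-91, -2.90 for Mir5104 and -2.74 for Il2rb. Cryab was higher in tumor MC, at means of 10.58 with placebo and 10.77 with DC101, than in any peritoneal array. Fabp6, Marco and Car1 were below the median cluster in both tumor groups. The interaction did not pass for Syne1 (adjusted p = 0.076), Atp6v0d2 (adjusted p = 0.1), Gzma (adjusted p = 0.1), Ccl5 (adjusted p = 0.097) and Akr1cl (adjusted p = 0.052), which were called in peritoneal MC, and this does not show that their responses are alike.

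Of the 26 genes given above with an interaction call, 12 kept it whichever of the 8 arrays was left out, and these were Ccl8, Chp2, Clec4g, Mgl2, AF067061, Fabp6, Xcl1, 1810046K07Rik, Cryab, Gzmb, Car1 and Mcpt8. The others lost it without at least 1 tumor array. Fxyd2, Gas6, Pdgfc, Dach1 and Marco lost it without any one of the 4 tumor or 2 peritoneal placebo arrays (4.09 to 6.04, 3.75 to 5.56, 3.51 to 5.11, 3.15 to 4.34 and -4.18 to -2.97).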

How the results depend on the processing

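The count of clusters called in peritoneal MC at an adjusted p under 0.05 was 1105 over all 8 arrays. It was 453 with the peritoneal arrays alone and 33 without moderation of the variances, of which 23 were also among the 1105. Leaving out 1 array at a time gave 311 to 906 calls, the lowest without peritoneal placebo replicate 2. The other settings gave 750 to 1579. At the study's thresholds the count was 1418, and it was 1172 to 1430 under the alternatives that kept all peritoneal arrays and 1413 to 1875 with 1 array left out. No result reversed its direction.

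The interaction count of 194 was 463 with an intensity trend in the prior, 346 with dim clusters left out, 0 without moderation of the variances in limma (2868 at an unadjusted p under 0.05, against 3160 with it), and 22 to 187 with 1 array left out, the lowest without tumor DC101 replicate 1. The cause of these differences was not tested. With the replicate number as a block, 850 clusters were called in peritoneal MC, 1423 passed the study's thresholds and 113 passed the interaction test. Deviations of same-numbered arrays correlated at -0.00532 between the peritoneal groups and at -0.165 between the tumor groups. With so few arrays, such values cannot show whether same-numbered arrays share mice or handling. The labels give only a number, and the arrays were not treated as pairs.

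Of 148 named genes that were called, 69 to 134 were called with 1 array left out, 101 with the peritoneal arrays alone and 5 without moderation. With 2 arrays in a group the spread rests on few values, and nothing states whether they came from separate mice. The arrays give no detection calls, so differences between dim clusters are limited by background.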
